A study of Mus musculus with 59 samples.

Results

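The basement membrane transcripts described here are those of 10 genes chosen by symbol: the laminin chains Lama1, Lama3, Lama5, Lamb1 and Lamc1, the collagen IV chains Col4a1, Col4a2 and Col4a5, the linker Nid1 and the heparan sulphate proteoglycan Hspg2. They are 10 of the 22134 genes matched to the listed transcripts, and each was represented by its transcript with the highest mean count over the 14 epiblasts. All 10 were listed and all 10 passed the filter on low counts in both crosses. The study asked what the histone methyltransferases G9a (encoded by Ehmt2) and EZH2 contribute to gene regulation in the early postimplantation embryo, and sequenced RNA of single mouse epiblasts at E6.25. In the Ehmt2 cross there were 4 Ehmt2-/- and 4 control epiblasts, and in the Ezh2 cross 3 Ezh2-/- and 3 control epiblasts. The labels give the controls as G9a+/+ and Ezh+/+, whereas the methods of the study also allow heterozygous embryos among them. All embryos came from matings of heterozygous parents on a mixed background and lacked any treatment, the epiblasts were dissected rather than sorted, and which control and knockout shared a litter is not given in the sources used here.

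A basement membrane is a thin sheet of extracellular matrix that underlies an epithelium. Laminins, each a trimer of an alpha, a beta and a gamma chain, form one network on the cell surface, collagen IV trimers form a second, and nidogen and perlecan (the product of Hspg2) join them. In the early postimplantation embryo such a sheet lies between the epiblast and the visceral endoderm, much of it made by the endoderm, and another, Reichert's membrane, is laid down by the parietal endoderm.

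Genomic positions are on GRCm38. Nid1 (ENSMUST00000005532) lies on the + strand of chromosome 13 from 13437551 to 13512269 with 20 exons. Lama1 (ENSMUST00000035471) lies on chromosome 17 from 67697259 to 67822647, Lama5 (ENSMUST00000015791) on chromosome 2 from 180176373 to 180225859, Lamb1 (ENSMUST00000002979) on chromosome 12 from 31265293 to 31329644 and Lamc1 (ENSMUST00000027752) on chromosome 1 from 153218922 to 153332786. Hspg2 (ENSMUST00000171332) lies on chromosome 4 from 137468803 to 137570629. The collagen IV genes stand in head-to-head pairs. Col4a1 (ENSMUST00000033898, - strand, chromosome 8 from 11198423 to 11312826) and Col4a2 (ENSMUST00000033899, + strand, 11312805 to 11449287) are transcribed away from each other, and their first exons overlap by 22 bases. Col4a5 (ENSMUST00000112931, + strand, chromosome X from 141475385 to 141689234) starts 1309 bases from the start of its neighbour Col4a6 (ENSMUST00000101205, - strand, 141165403 to 141474076).

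Promoter sequences of RefSeq (GRCm38.p6) were found for 7 of the 10 genes. Nid1 is shown because its transcript was called in the Ehmt2 cross and Lama5 because its transcript was not, both 5′ to 3′ on the strand of the gene, ending just before the annotated transcript, with every CpG in capitals. The Nid1 stretch is chr13:13437352-13437550 and the Lama5 stretch is chr2:180225860-180226109. The third line is the + strand of chr8:11312797-11312834 and is shown because Col4a1 and Col4a2 both start in it, with the 22 bases that belong to both first exons in capitals.
Nid1: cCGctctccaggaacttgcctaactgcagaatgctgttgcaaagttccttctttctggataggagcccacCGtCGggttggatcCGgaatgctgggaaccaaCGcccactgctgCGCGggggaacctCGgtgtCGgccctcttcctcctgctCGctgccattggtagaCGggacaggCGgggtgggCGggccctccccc
Lama5: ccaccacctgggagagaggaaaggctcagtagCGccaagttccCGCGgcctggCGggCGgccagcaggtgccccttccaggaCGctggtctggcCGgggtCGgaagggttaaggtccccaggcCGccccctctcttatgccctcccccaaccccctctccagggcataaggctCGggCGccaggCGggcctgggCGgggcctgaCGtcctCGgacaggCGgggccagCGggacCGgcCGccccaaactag
Col4a1 and Col4a2: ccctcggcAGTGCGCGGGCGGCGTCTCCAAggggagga
The Nid1 stretch holds 13 CpGs in 199 bases and the Lama5 stretch 19 in 250. In the full windows of 300 bases around the start, the 7 members held between 11 (Col4a5) and 37 (Col4a1) CpGs, with 20 in Nid1 and 24 in Lama5, against a median of 7 over 32851 windows. On either strand, GGGCGG was in the window of 7 of 7 members and in 35.7% of all windows, CCAAT in 5 of 7 and 37.4%, and TATAAA in 0 of 7 and 13.6%. The windows of Col4a1 and Col4a2 overlap, and these matches are a description of letters, not of bound sites.

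The counts over all transcripts were between 30161171 and 68464895 per epiblast. Replicate 4 of each Ehmt2 genotype was deeper than every other epiblast (62589918 and 68464895) and the Ehmt2 model carried a term that sets them apart from replicates 1 to 3. The study is not uniform on this point: the column names of its source table set knockout 4 against control 4, whereas its methods text has each knockout compared with all controls. Of the targeted genes, Ehmt2 had 10.3, 11.1, 15.5 and 32.7 CPM (counts scaled by edgeR to the library size after TMM) in the 4 controls, while the Ehmt2-/- epiblasts had 4.73, 4.47, 3.22 and 9.46 CPM, so each knockout was below every control. Ezh2 had 53.4, 67.2 and 112.0 CPM in its controls and 11.8, 12.0 and 16.6 CPM in its knockouts, again without overlap. Summed levels of 8 epiblast markers were between 1626 and 3079 CPM in all 14 epiblasts and lower in the Ehmt2-/- epiblasts than in their controls, as given with the Ehmt2 results. Markers of other tissues differed between epiblasts and are given beside the results they move with. In whole epiblasts, a change in the number of cells that carry a transcript and a change in the RNA per cell cannot be told apart.

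Per kb of exon length, the laminin chains beta 1, gamma 1 and alpha 5 were the most abundant of the 10 transcripts. In the 4 Ehmt2 controls, Lamc1 stood at 8.23 ± 1.33 CPM per kb (SD), Lamb1 at 6.19 ± 0.58, Lama5 at 6.12 ± 1.14 and Hspg2 at 3.63 ± 0.35. Col4a1 followed at 1.75 ± 0.30, Nid1 at 0.71 ± 0.49, Col4a2 at 0.60 ± 0.16, Lama1 at 0.47 ± 0.34, Col4a5 at 0.14 ± 0.08 and Lama3 at 0.13 ± 0.09. The ranges of Lamc1, Lamb1 and Lama5 overlapped, as did those of each neighbouring pair from Nid1 to Lama3, whereas the ranges of Hspg2 (3.12 to 3.90), Col4a1 (1.44 to 2.14) and the group from Nid1 downwards (at most 1.18) did not overlap. The 3 Ezh2 controls had the same first 8 ranks, with Lama3 (0.18) above Col4a5 (0.06). Lama5 was above Lama1 per kb in every control: the ratio of Lama1 to Lama5 per kb was between 0.0208 and 0.137 in Ehmt2 controls and between 0.116 and 0.186 in Ezh2 controls. Amplified cDNA need not cover transcripts evenly along their length, so these orders between genes are less certain than comparisons of 1 gene between epiblasts.

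**Figure D1:**
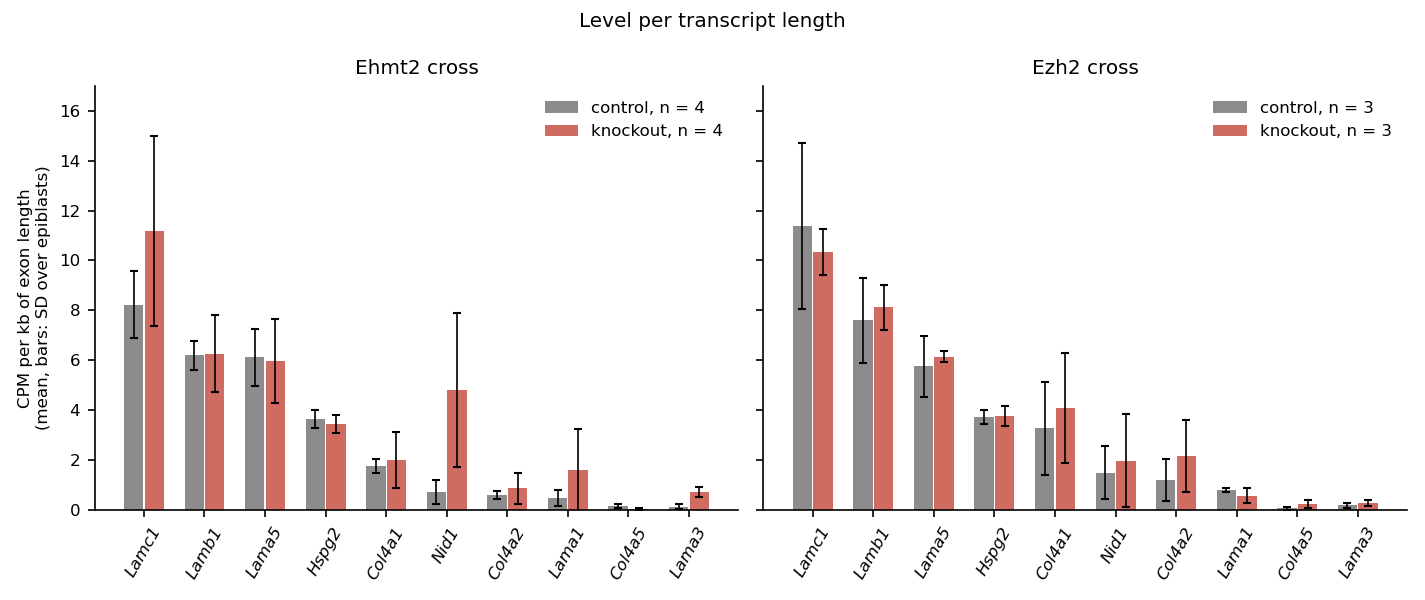
Mean level of each transcript in CPM per kb of exon length (bars; error bars are the SD over epiblasts), in control (grey) and knockout (red) epiblasts of each cross. Lamc1, Lamb1 and Lama5 lead in all 4 groups, and Nid1 goes from 0.71 in Ehmt2 controls to 4.81 in Ehmt2-/- epiblasts.

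With a term for the comparison sets, Nid1 and Lama3 were called higher in Ehmt2-/- epiblasts and no member was called lower; without that term 0 members were called. Nid1, encoding nidogen 1, which links laminin to collagen IV, was at 4.32 ± 3.01 CPM (SD, n = 4) in controls against 29.3 ± 18.8 CPM (SD, n = 4) in the Ehmt2-/- epiblasts. Lama3, encoding the alpha 3 chain of epithelial laminins, was at 1.34 ± 0.95 CPM in controls and 7.64 ± 2.17 CPM in knockouts. Calls were made with edgeR's quasi-likelihood test over all transcripts, from a Benjamini-Hochberg adjusted p below 0.05 together with a log2 fold change of more than 1.4 in either direction. By this rule 2 of 10 members were called higher, against 0.441% of the 49872 transcripts tested, and 0 of 10 lower, against 0.0581%. An unadjusted p-value under 0.05 was reached by 3 of 10 members (Nid1, Lama3 and Lamc1), against 11.8% of all transcripts. These shares count every isoform, whereas each member is 1 transcript. In the edgeR fit with 1 transcript per gene, 112 of 13749 were called higher and 12 lower, and 1984 had an unadjusted p-value under 0.05. The counts of members stayed at 2, 0 and 3. The median log2 fold change was 0.30 over the 10 members and -0.01 over all transcripts tested.

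**Figure D2:**
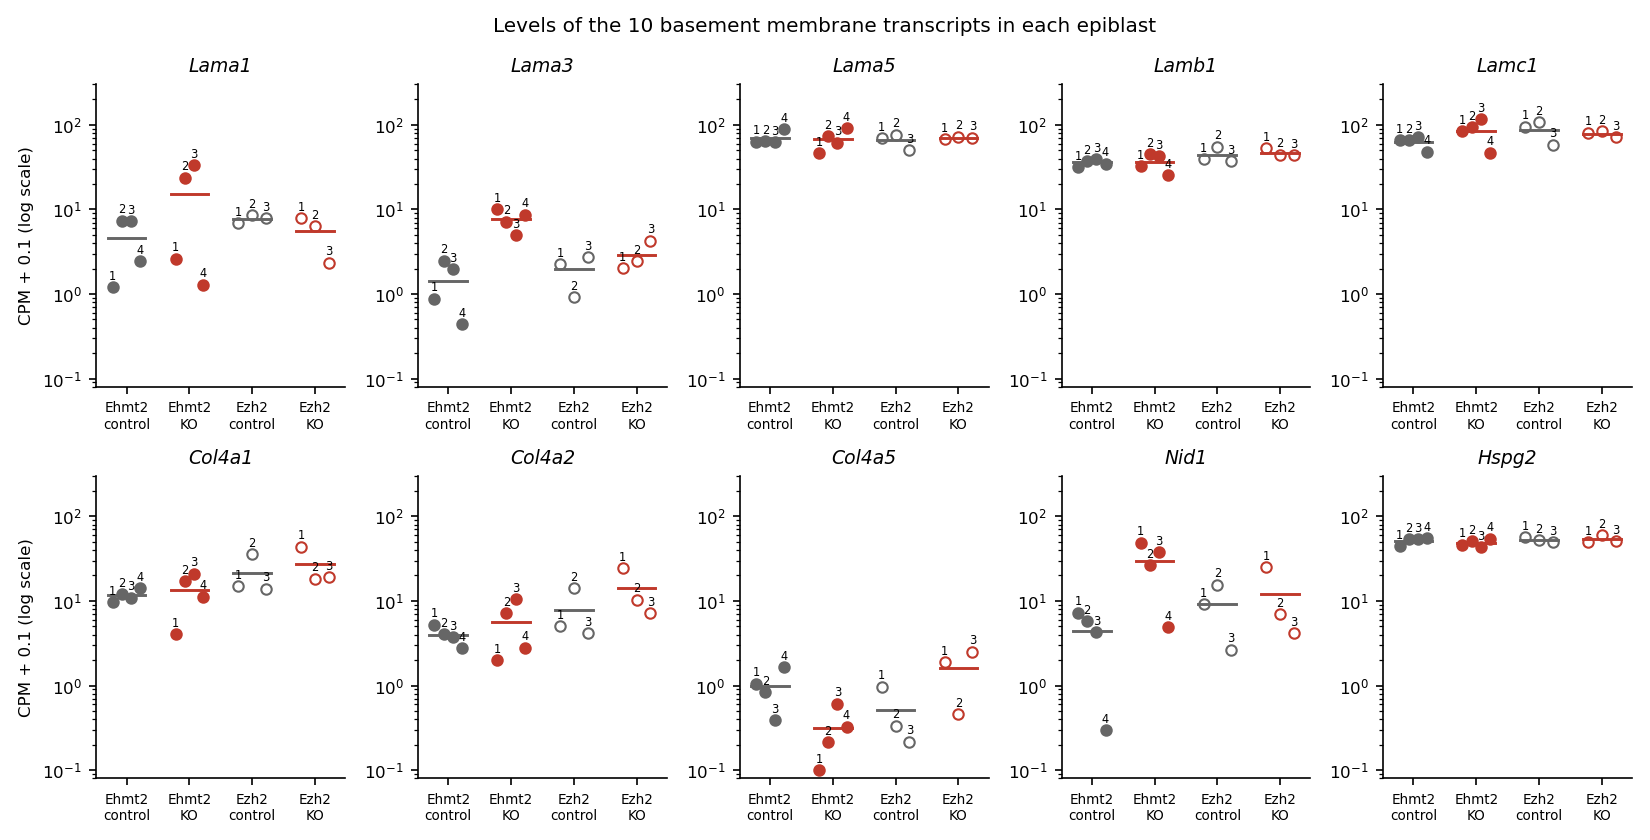
CPM + 0.1 on a log axis for each of the 10 transcripts (points, numbered by replicate; filled for the Ehmt2 and open for the Ezh2 cross; lines are group means). All 4 Ehmt2-/- epiblasts lie above all 4 controls for Lama3, and 3 of 4 do for Nid1, while Lama5, Lamb1 and Hspg2 stay within a narrow band.

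In the Ehmt2 controls 1 to 4, Nid1 had 7.20, 5.71, 4.17 and 0.20 CPM. Its knockouts 1 to 4 had 48.9, 26.2, 37.4 and 4.79 CPM. Knockouts 1 to 3 were above every control, knockout 4 was above control 4 of its own set but below controls 1 and 2, and so the groups overlapped. The log2 fold change with the set term was 3.01 (SE 0.31, adjusted p = 0.00156, edgeR's quasi-likelihood test with Benjamini-Hochberg adjustment), whereas the two-sided exact permutation test on the 8 CPM values, which ignores the sets, gave p = 0.0857. Control 4 had 11 counts of this transcript and knockout 4 had 297. The call was lost without the set term (adjusted p = 0.412), without control 4 (0.374) and without knockout 4 (0.0891), and was kept when replicate 4 of both genotypes was left out together (log2 fold change 2.72, adjusted p = 0.000702), a choice made after seeing the data.

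The Lama3 transcript (ENSMUST00000092070) lies on chromosome 18 from 12333819 to 12583013 and has 75 exons. Lama3 had 0.78, 2.39, 1.86 and 0.34 CPM in controls 1 to 4. It had 9.99, 7.10, 4.90 and 8.58 CPM in knockouts 1 to 4. The groups did not overlap, which was so for 1 of 10 members in this direction and for 2.56% of all transcripts; in the lower direction it was so for 0 of 10 members and 2.53%. The log2 fold change was 2.66 (SE 0.50, adjusted p = 0.0374, edgeR's quasi-likelihood test), and the exact permutation p of 0.0286 is the smallest that 4 against 4 allows. The call was lost without the set term (adjusted p = 0.171) and in 7 of the 8 fits that left out 1 epiblast (adjusted p from 0.0530 to 0.188). It was kept without knockout 3 (0.0418) and without replicate 4 of both genotypes (log2 fold change 2.12, adjusted p = 0.0354). Per kb, Lama3 stayed a minor alpha chain: its ratio to Lama5 ranged from 0.00415 to 0.0405 in controls and from 0.0860 to 0.235 in knockouts.

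Of 10 extraembryonic ectoderm markers, 5 (Elf5, Esrrb, Bmp4, Sfmbt2 and Tfap2c) were called higher in the Ehmt2-/- epiblasts too, against 0.441% of all transcripts. In the Ezh2 cross 8 of them were tested and 0 called. For 4 of these (Esrrb, Bmp4, Bmp8b and Sfmbt2) each Ezh2 knockout was above every control, against 6.46% of all transcripts. In the Ehmt2 cross the summed level of the 10 markers was between 43.7 and 147 CPM in controls and 796, 174, 217 and 50.6 CPM in knockouts 1 to 4. Nid1 was highest in knockout 1, as was this sum. In knockout 4 the markers Elf5, Cdx2 and Tfap2c were at 0, and in control 4 they were at 0, 0 and 0.02 CPM. Lama3 (8.58 against 0.34 CPM) and Nid1 (4.79 against 0.20 CPM) were higher in knockout 4 than in control 4. Sfmbt2 (5.83 against 0.18 CPM), Bmp4 (4.23 against 1.23 CPM) and Esrrb (1.08 against 0.02 CPM) were also higher in knockout 4 than in control 4. Fgfr2 and Ets2 were higher there too, whereas Bmp8b and Eomes were lower, so the markers did not all move in the same direction. The sum was below that of control 4 (57.5 CPM) because of Eomes (39.1 CPM in control 4 and 16.04 CPM in knockout 4), which also marks nascent mesoderm. Without Eomes, a choice made after seeing the data, the sum was 25.6, 27.7, 24.1 and 18.4 CPM in controls 1 to 4. In knockouts 1 to 4 it was 680, 125, 155 and 34.6 CPM, each above every control. Ets2 made up most of this sum in control 4 and in knockout 4. Epiblast markers summed to 2707, 2715, 3079 and 2851 CPM in controls and to 1626, 2163, 2214 and 2352 CPM in knockouts, so each knockout was below every control. Most of each sum was Dnmt3b (966 to 2031 CPM). Of single markers, only Otx2 and Dnmt3b had each knockout below every control, and the groups overlapped for the others. Sox2 had a higher mean in knockouts (22.9 against 18.7 CPM), and none of the 8 was called. Parietal endoderm markers, most of whose sum is Sparc, reached 118, 116 and 151 CPM in knockouts 1 to 3, above every control (66.4 to 104 CPM), and 58.9 CPM in knockout 4. The low markers Sox7, Thbd and Pth1r had mean CPM 2.54, 5.12 and 3.23 times that of controls. Plat, also low, went the other way at 0.39 times, and none of them was called. Visceral endoderm markers summed to between 120 and 262 CPM in controls and from 136 to 250 CPM in knockouts. Most of each sum was Lrp2 (109 to 192 CPM). Of the 18 markers, 8 were at 0 in control 4 and 10 in knockout 4, against at most 1 in each other Ehmt2 epiblast. Apob had 21.9, 16.1, 16.45 and 1.03 CPM in controls 1 to 4. It had 2.80, 24.4, 7.40 and 0.39 CPM in knockouts 1 to 4. The part of any of these tissues in the changes of Nid1, Lama3 and Lamc1 was not tested.

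**Figure D3:**
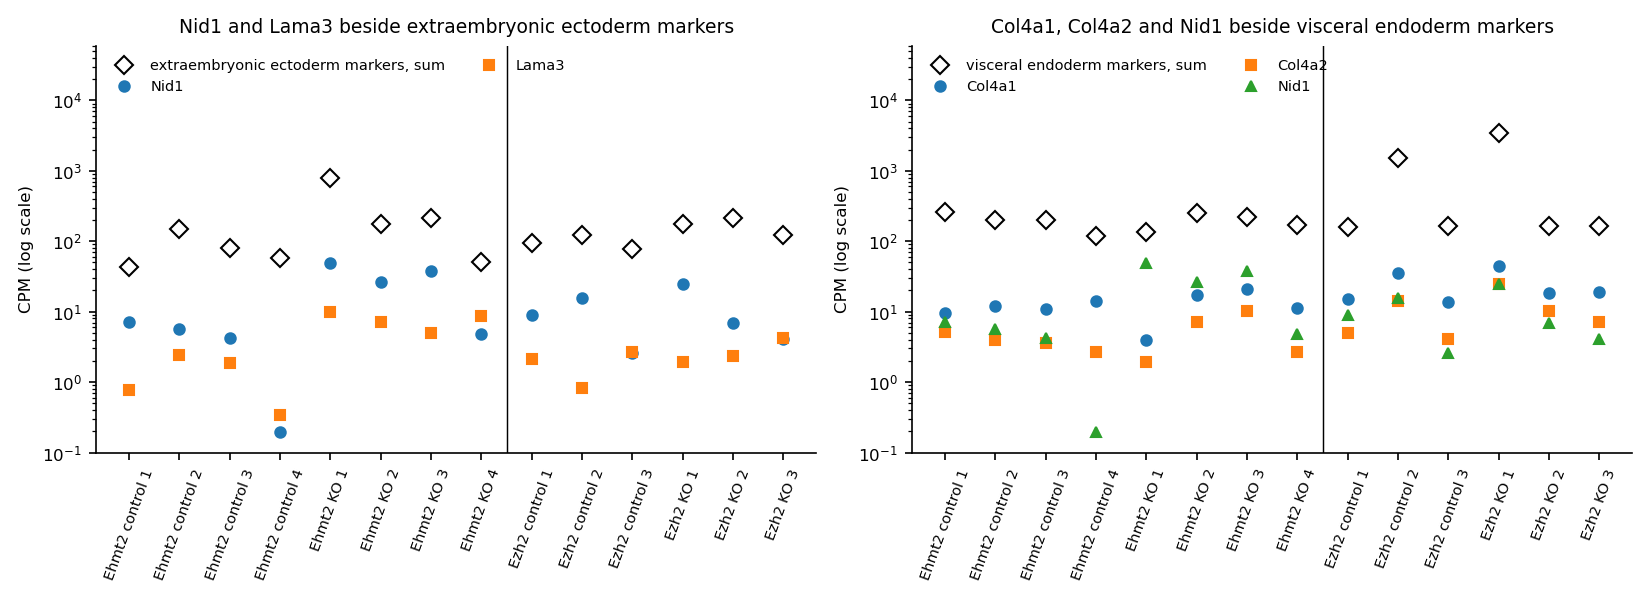
CPM on a log axis in each of the 14 epiblasts, with open diamonds for the summed markers of extraembryonic ectoderm (left) and visceral endoderm (right) and coloured points for single members. Extraembryonic ectoderm markers peak in Ehmt2 knockout 1, where Nid1 is highest, and visceral endoderm markers stand out in Ezh2 control 2 and knockout 1, where Col4a1 and Col4a2 are highest.

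The laminin chain transcripts most abundant per kb, those of alpha 5, beta 1 and gamma 1, showed no call in the Ehmt2 cross. Lama5 had 63.4, 63.6, 62.7 and 89.2 CPM in controls and 45.9, 73.7, 61.5 and 90.8 CPM in knockouts. Both replicate 4 epiblasts were the highest of their group, and the log2 fold change was -0.04 (SE 0.14). Lamb1 had 31.8, 37.5, 39.4 and 34.6 CPM in controls and 32.2, 44.8, 42.4 and 25.5 CPM in knockouts, with a log2 fold change of -0.01 (SE 0.16). Lamc1 had 65.5, 65.7, 71.7 and 48.1 CPM in controls. Its knockouts had 84.8, 93.1, 117 and 46.9 CPM. Knockouts 1 to 3 were above every control and knockout 4 was below all of them, with a log2 fold change of 0.40 (SE 0.14, adjusted p = 0.278, edgeR's quasi-likelihood test). Within the gamma 1 and beta 1 pair, the ratio of Lamc1 to Lamb1 per kb ranged from 1.05 to 1.56 in controls and from 1.39 to 2.09 in knockouts (two-sided exact permutation test, p = 0.0571).

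Lama1, the alpha chain of laminin-111, was uneven within both groups of the Ehmt2 cross. It had 1.10, 7.28, 7.14 and 2.36 CPM in controls 1 to 4. The knockouts had 2.52, 23.7, 33.1 and 1.19 CPM. Knockouts 2 and 3 were above every control and knockouts 1 and 4 were not, and the log2 fold change of 1.32 (SE 0.79) had an adjusted p of 0.559 in edgeR's quasi-likelihood test. Leaving out 1 epiblast moved it between 0.74 and 2.14.

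Col4a1 and Col4a2, the chains of the common collagen IV trimer, followed the same division among the knockouts. Col4a1 had 9.52, 11.9, 10.9 and 14.2 CPM in controls 1 to 4, and Ehmt2-/- epiblasts 1 to 4 had 3.97, 17.02, 20.9 and 11.2 CPM. Col4a2 had 5.14, 3.91, 3.62 and 2.69 CPM in controls and 1.90, 7.13, 10.4 and 2.69 CPM in knockouts. In both, knockouts 2 and 3 were above every control and knockout 1 was below every control, so the knockouts spread over a wider range than the controls on both sides. The log2 fold changes were 0.20 (SE 0.38) for Col4a1 and 0.46 (SE 0.42) for Col4a2, neither called. Decidual and blood markers, of which Prl8a2 is made by decidual cells, summed to 19.3 and 21.3 CPM in knockouts 2 and 3. In the other Ehmt2 epiblasts they summed to between 1.60 and 13.2 CPM. Lama1 was lowest in control 1, where this sum was 13.2 CPM. It was at most 2.52 CPM in control 4, knockout 1 and knockout 4, with sums of 1.60, 3.33 and 2.94 CPM. The part of such cells was not tested.

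**Figure D4:**
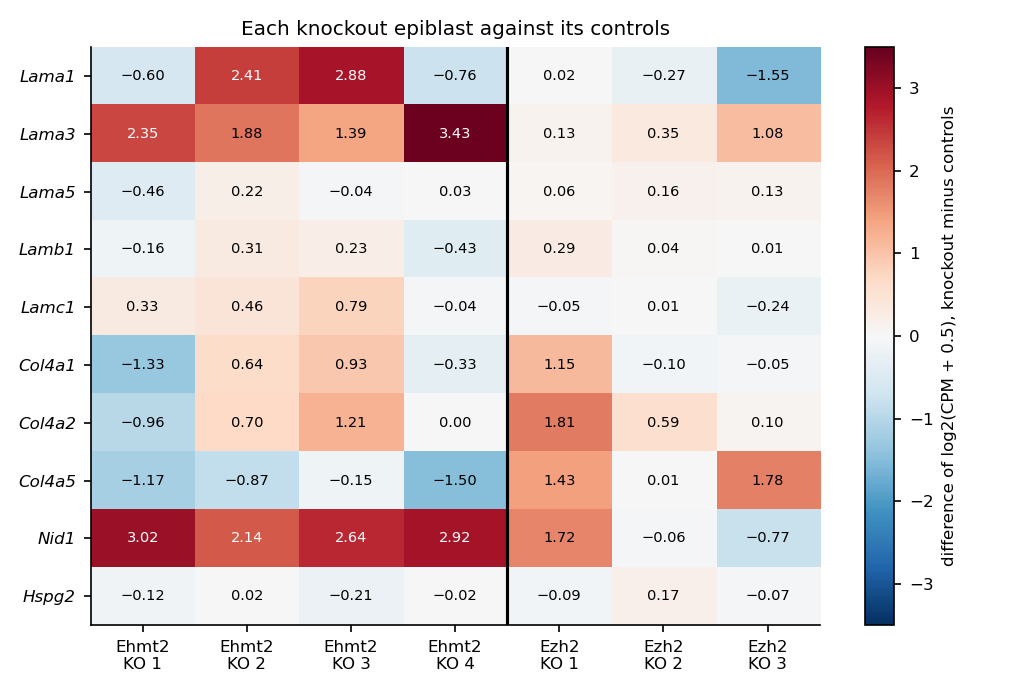
Difference of log2(CPM + 0.5) between each knockout epiblast and the mean of its controls (colour and number; Ehmt2 knockouts 1 to 3 against controls 1 to 3, Ehmt2 knockout 4 against control 4, Ezh2 knockouts against all 3 controls). Nid1 and Lama3 are positive in all 4 Ehmt2-/- epiblasts, Lama1, Col4a1 and Col4a2 exceed 0.5 only in Ehmt2 knockouts 2 and 3 within that cross, and Ezh2 knockout 1 differs most among the Ezh2-/- epiblasts in Col4a1, Col4a2 and Nid1.

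Set against its own controls, each Ehmt2-/- epiblast had more Nid1 and Lama3. On the log2(CPM + 0.5) scale, which understates changes of low transcripts, the differences of Nid1 were 3.02, 2.14, 2.64 and 2.92 in knockouts 1 to 4 and those of Lama3 were 2.35, 1.88, 1.39 and 3.43. Of the 10 members, 3, 9, 7 and 4 were above the controls in knockouts 1 to 4. A rule modelled on the methods of the study, but with each knockout set against the controls of its own set, required a log2 fold change beyond 1.4 in the same direction in each knockout, an unadjusted p-value under 0.05 after combining the embryos by Fisher's method, and at least 5 normalised counts in every epiblast of the higher group. It named 2 of 10 members higher (Nid1 and Lama3), against 0.565% of transcripts, and 0 lower, against 0.192%. When all 4 controls served for every knockout, as the methods text of the study has it, Lama3 remained and Nid1 did not, since its log2 fold change in knockout 4 was then 0.15.

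Hspg2, the core protein of perlecan, was the steadiest member. It had 44.2, 53.5, 53.2 and 55.2 CPM in Ehmt2 controls and 46.0, 50.8, 43.4 and 54.5 CPM in Ehmt2-/- epiblasts. Its log2 fold change was -0.08 (SE 0.12).

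The X-linked collagen IV chains were low throughout. Col4a5, which forms trimers with other minor chains, had 39, 35, 11 and 86 counts in Ehmt2 controls and 0, 4, 20 and 14 in knockouts, or 0.95, 0.74, 0.29 and 1.55 CPM against 0, 0.11, 0.51 and 0.23 CPM. Only control 3 was below a knockout, and the log2 fold change of -1.93 (SE 0.90) was not called (adjusted p = 0.437, edgeR's quasi-likelihood test). The pooled counts, 38 in knockouts and 171 in controls, gave a ratio of 0.235 (95% exact interval 0.161 to 0.335, counting error only). Col4a6, its head-to-head neighbour and not one of the 10 members, had 30, 15, 11 and 31 counts in controls and 0, 1, 0 and 0 in knockouts, and was called lower (adjusted p = 0.0409). Its pooled ratio, from 1 count against 87, was 0.0121 (95% exact interval 0.000304 to 0.0695). Y-linked genes summed to at least 54.0 CPM in Ehmt2 controls 2 and 4 and knockout 4 and to at most 0.42 CPM in the other Ehmt2 epiblasts, so the groups held unequal numbers of epiblasts with Y-linked RNA, whose part in the levels of these X-linked genes was not tested.

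**Figure D5:**
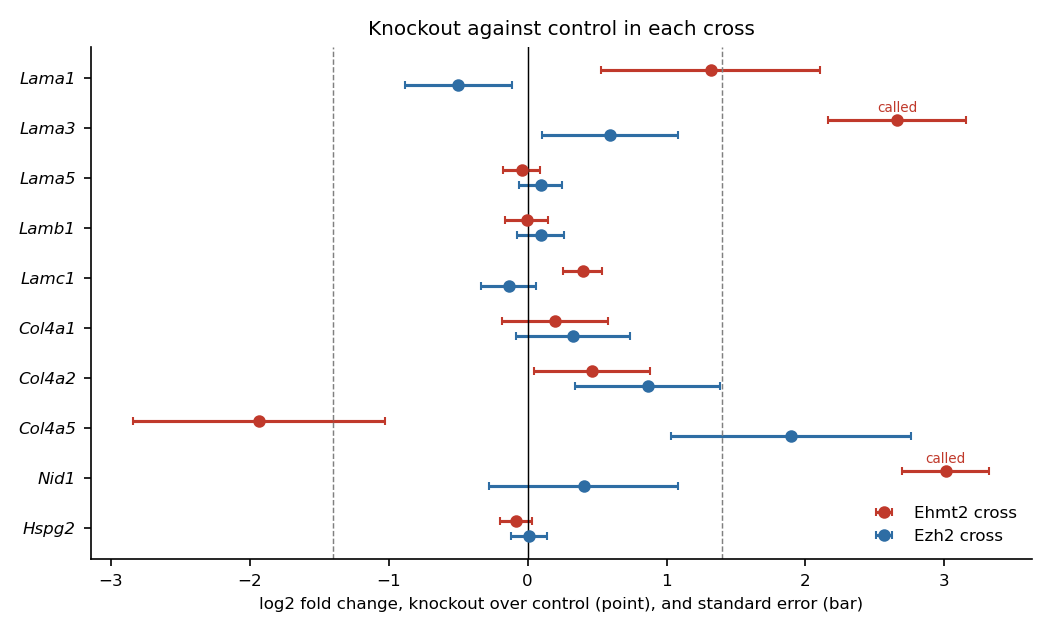
Log2 fold change of knockout over control (points) with its standard error (bars) for each member in the Ehmt2 (red) and Ezh2 (blue) cross; dashed lines mark 1.4 in either direction. Nid1 at 3.01 and Lama3 at 2.66 in the Ehmt2 cross are the only values called.

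No member was called in the Ezh2 cross, in either direction, with edgeR's quasi-likelihood test. Over all 50855 transcripts 0% were called higher and 0.0118% lower. An unadjusted p-value under 0.05 was reached by 0 of 10 members, against 7.02% of all transcripts, and DESeq2 called 0 members and gave 1 an unadjusted p under 0.05. With 1 transcript per gene the edgeR fit called 0 of 14010, and 1120 of these but 0 members had an unadjusted p under 0.05. The groups did not overlap for 0 of 10 members, either with each knockout higher (6.46% of all transcripts) or with each lower (6.61%). The median log2 fold change was 0.21 over the members and 0.01 over all transcripts, and with 3 against 3 the exact permutation test cannot go below p = 0.10.

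Nid1 had 9.01, 15.5 and 2.55 CPM in Ezh2 controls 1 to 3 and 24.9, 6.93 and 4.03 CPM in Ezh2-/- epiblasts 1 to 3. Lama3 had 2.15, 0.83 and 2.64 CPM in controls and 1.93, 2.33 and 4.19 CPM in knockouts. The groups overlapped for both, with log2 fold changes of 0.40 (SE 0.68) and 0.59 (SE 0.49). Lama1 had 6.72, 8.39 and 7.79 CPM in controls and 7.73, 6.24 and 2.26 CPM in knockouts, with knockout 3 lowest and a log2 fold change of -0.50 (SE 0.39).

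Col4a1 had 14.98, 35.8 and 13.9 CPM in Ezh2 controls and 43.9, 18.2 and 18.9 CPM in knockouts. Col4a2 had 4.93, 13.97 and 4.10 CPM in controls and 24.5, 10.2 and 7.13 CPM in knockouts. Control 2 and knockout 1 were the highest of their groups for both chains, and also for Nid1 and Lamb1 (55.3 and 53.0 CPM, the other 4 epiblasts being between 37.4 and 44.4). These 2 epiblasts also stood apart in 18 visceral endoderm markers, which summed to 1516 and 3380 CPM there and to between 161 and 165 CPM in the other 4. Apob, for example, had 759 and 1761 CPM in them and between 6.62 and 12.8 CPM elsewhere in the cross. Without these 2 epiblasts the log2 fold changes were 0.36 (SE 0.23) for Col4a1, 0.94 (SE 0.35) for Col4a2 and -0.08 (SE 0.55) for Nid1, and 0 members were called, a choice made after seeing the data. The part of visceral endoderm in the spread of these transcripts was not tested further.

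Lamc1 had 95.1, 107 and 58.1 CPM in Ezh2 controls and 80.9, 84.8 and 71.0 CPM in knockouts. Lama5 had 69.6, 76.6 and 50.1 CPM in controls and 67.3, 72.1 and 70.3 CPM in knockouts, and Hspg2 57.2, 52.2 and 49.5 against 49.8, 59.7 and 50.4 CPM. Control 3 was the lowest epiblast for Lamc1 and Lama5, and the knockouts lay within the range of the controls for both. The log2 fold changes were -0.14 (SE 0.20) for Lamc1, 0.10 (SE 0.16) for Lama5, 0.10 (SE 0.17) for Lamb1 and 0.01 (SE 0.13) for Hspg2. Col4a5 had 30, 8 and 4 counts in controls and 56, 13 and 89 in knockouts, with a log2 fold change of 1.90 (SE 0.86, unadjusted p = 0.0520, adjusted p = 0.716, edgeR's quasi-likelihood test). Y-linked genes were at 0.55 and 0.59 CPM in controls 1 and 3 and between 60.9 and 78.5 CPM in control 2 and the 3 knockouts. The per-embryo rule named 0 of 10 members in the Ezh2 cross, against 0.568% of transcripts higher and 0.146% lower.

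The knockout effects of the crosses were compared directly in a joint fit of the 14 epiblasts, which share no controls. Of 55248 transcripts 0.0561% were called different, and 0 of 10 members. The estimated difference, Ehmt2 effect minus Ezh2 effect, was 2.62 for Nid1 (SE 0.82, adjusted p = 0.395), 2.08 for Lama3 (SE 0.75, adjusted p = 0.466) and -3.83 for Col4a5 (SE 1.37, adjusted p = 0.462) on the log2 scale in edgeR's quasi-likelihood test. These were the 3 members with an unadjusted p-value under 0.05 (0.00540, 0.0133 and 0.0128), against 8.33% of transcripts. That Nid1 and Lama3 were called in the Ehmt2 cross and not in the Ezh2 cross is therefore not shown to be a difference between the crosses.

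Among themselves the members varied in different ways over the 14 epiblasts. After centring log2(CPM + 0.5) on the mean of each cross, the mean absolute deviation was 1.25 for Nid1, 0.96 for Lama1 and 0.81 for Lama3, and 0.11 for Hspg2, 0.19 for Lamb1 and 0.20 for Lama5. The most alike pairs were Lama5 and Hspg2 (mean absolute difference 0.18), Lamb1 and Hspg2 (0.21) and Lamb1 and Lamc1 (0.22), and the head-to-head pair Col4a1 and Col4a2 differed by 0.35. Col4a1 was above Col4a2 in each of the 14 epiblasts, by 1.73 to 5.14 times per kb. The 5 other genes closest to the mean profile of the members were Cyp2j13 (0.14), Foxo4 (0.17), Cited2 (0.17), Colec12 (0.19) and Glul (0.19), out of 11254 compared; the median gene differed by 0.42, and a gene with no variation would differ by 0.30.

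Other basement membrane genes were read from a list of 55, of which 48 were tested in each cross. In the Ehmt2 cross 1 was called higher and 1 lower (0.441% and 0.0581% of all transcripts), 12 had an unadjusted p-value under 0.05 (11.8% of all transcripts), and the median log2 fold change was 0.01, with 25 positive and 23 negative. Of the 12, 5 were higher in the knockouts and the rest were lower. The gene called higher was Smoc1, encoding a secreted calcium-binding protein of basement membranes. It had 3.75, 3.09, 5.17 and 2.33 CPM in controls and 16.4, 7.04, 9.04 and 13.4 CPM in knockouts, without overlap, and a log2 fold change of 1.71 (SE 0.32, adjusted p = 0.0409, edgeR's quasi-likelihood test). The one called lower was Col4a6. In the Ezh2 cross 0 of 48 were called, 6 had an unadjusted p-value under 0.05 (7.02% of all transcripts), and Smoc1 was at 3.04, 4.93 and 4.63 CPM in controls and 8.34, 5.51 and 5.31 CPM in knockouts.

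By role, 16 further chains and linkers were tested, and the most abundant were Sparc, Agrn and Nid2. Nid2, the second nidogen, stood at 46.3 ± 8.4 CPM in Ehmt2 controls and 45.1 ± 10.2 CPM in knockouts, with a log2 fold change of -0.05 (SE 0.11), beside the call of Nid1. Sparc, a collagen-binding matrix protein, had log2 fold changes of 0.43 (SE 0.18) in the Ehmt2 and 0.01 (SE 0.23) in the Ezh2 cross, and agrin (Agrn) -0.10 (SE 0.15) and -0.14 (SE 0.14).

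None of 12 receptors was called. Integrin beta 1 (Itgb1), integrin alpha 6 (Itga6) and dystroglycan (Dag1), which bind laminin at the cell surface, had log2 fold changes of 0.27 (SE 0.13), -0.0042 (SE 0.16) and 0.28 (SE 0.15) in the Ehmt2 cross. In the Ezh2 cross they were -0.27 (SE 0.14), -0.31 (SE 0.12) and 0.10 (SE 0.21). Itga7, a laminin-binding integrin chain named after its values were seen, had 0.39, 0.13, 0.03 and 0 CPM in Ehmt2 controls and 4.81, 2.25, 1.07 and 0 CPM in knockouts (log2 fold change 3.83, SE 0.89, adjusted p = 0.0974, edgeR's quasi-likelihood test). None of 12 genes of collagen IV and laminin processing was called either. Plod2, a collagen lysyl hydroxylase, is named after its values were seen. In the Ehmt2 cross it had 28.7, 30.2, 25.6 and 19.4 CPM in controls and 43.8, 46.3, 38.3 and 36.3 CPM in knockouts, without overlap. Its log2 fold change of 0.68 (SE 0.13, adjusted p = 0.0409, edgeR's quasi-likelihood test) was below the fold threshold, and in the Ezh2 cross it was -0.35 (SE 0.18). P4hb, a subunit of prolyl hydroxylase, and Mia3, which loads collagen into transport carriers, had log2 fold changes of 0.02 (SE 0.10) and 0.09 (SE 0.11) in the Ehmt2 and -0.07 (SE 0.11) and -0.09 (SE 0.12) in the Ezh2 cross. Pxdn, next in mean CPM in the Ehmt2 cross, had -0.32 (SE 0.15) there and -0.18 (SE 0.13) in the Ezh2 cross. Of 8 genes of degradation 0 were called, and Mmp2, a gelatinase that cleaves collagen IV, had 0.66 (SE 0.24) and 0.24 (SE 0.31) and its tissue inhibitor relative Timp3 -0.06 (SE 0.46) and 0.10 (SE 0.54). Listed genes that were lower in the Ehmt2 cross and not called included Frem1 (log2 fold change -1.60, SE 0.36, adjusted p = 0.0832, edgeR's quasi-likelihood test). Mmp15 had -0.88 (SE 0.30), with each knockout below every control. Frem1 and Mmp15 too are named after their values were seen.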

How the data were processed

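The RNA-seq of 14 epiblasts was used; the ChIP-seq and bisulfite samples were not analysed here. RNA was amplified with an oligo and random primer kit that does not mark strand. The authors trimmed and aligned the reads with TopHat2 to GRCm38, counted them per Ensembl transcript with HTSeq and deposited these raw counts, 1 file per epiblast, listing counts of at least 1; an absent transcript was taken as 0. Isoforms can share reads. A row of unaligned reads in the replicate 4 files of the Ehmt2 cross (12.6% and 13.3% of their sums) was left out. Of 72515 transcripts, 70021 (96.6%) matched GENCODE.

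Transcripts were filtered with filterByExpr, scaled with TMM and tested with edgeR's quasi-likelihood test, each cross alone, with Benjamini-Hochberg adjustment over all transcripts. The Ehmt2 design had a term for the comparison set (replicates 1 to 3, replicate 4), as in the column names of the study's source table; its methods text compares each knockout with all controls, and both fits are given. Standard errors were taken as the fold change (log2) over the root of the F statistic. The code was tested on simulated data. P-values measure the spread between single embryos, and intervals and depths cover counting error only. The lowest chi-square per degree of freedom between replicates of a group was 16.7, so replicates differed by more than sampling noise. Replicate 4 of the Ehmt2 genotypes stood furthest apart: pairs with it had 146 to 192, and the other pairs within the Ehmt2 groups 16.7 to 31.0. Replicate numbers were not taken to pair embryos: deviations of same-numbered embryos correlated between 0.054 and 0.373 in the Ehmt2 and between -0.114 and 0.156 in the Ezh2 cross.

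The members and lists were chosen with earlier results of these data known. Named genes were the members, Ehmt2, Ezh2, pathway genes called in a cross, up to 3 of the highest mean CPM per role, and the 5 genes of smallest mean absolute difference from the members' mean profile among those with at least 10 counts in each epiblast; markers and Col4a6 as the neighbour of Col4a5 are given beside results. Alternatives were RLE scaling, DESeq2, no filter, 1 transcript per gene, the longest listed transcript, no set term, a replicate block, unscaled library sizes, all controls per knockout and leaving out each epiblast. The tools were edgeR 4.0.16 and DESeq2 1.42.0 in R 4.3.3, and scipy 1.17.1, pandas 2.3.3, numpy 2.4.6 and matplotlib 3.10.9 in Python 3.11.15.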

Additional observations from a re-analysis of the deposited data

Results flagged for a closer look

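Among 20 group and member combinations of 4 epiblasts, 1 held an epiblast far from the others by Dixon's ratio. Lama5 in Ehmt2 control replicate 4 was at 89.2 CPM, with the other controls between 62.7 and 63.6 CPM (ratio 0.964). Chance alone passes the limit used for this flag in about 1 of 20 groups. The ratio of 0.964 lay above that limit, and how often chance gives a ratio this high was not tested. Knockout 4, at 90.8 CPM, was as high, and groups of 3 were not tested.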

How the results depend on the processing

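The Ehmt2 comparison called 220 transcripts higher, 29 lower and 2 members. The transcripts called were 736 with DESeq2, 460 without the filter, 124 with 1 transcript per gene, 52 without the set term, 105 with the replicate block, 436 without replicate 4 of either genotype (chosen after seeing the data) and between 42 and 321 when 1 epiblast was left out. The members called were 0 without the set term, 1 with the replicate block (Nid1, adjusted p = 0.00678; Lama3 0.118) and between 0 and 2 with 1 epiblast left out, the fits without control 4 or knockout 4 giving 0; these last had no set term, and the cause of the other changes was not tested. The Ezh2 comparison called 6 transcripts, and 178 with DESeq2, 28 without the filter, 0 with 1 transcript per gene, 10 with the replicate block, 29 without the 2 epiblasts rich in visceral endoderm markers (chosen after seeing the data) and between 0 and 27 with 1 epiblast left out; it called 0 members under each of these. With all 4 controls for every knockout the per-embryo rule named 1 member instead of 2, and without the set term 9 transcripts instead of 31 differed between the crosses. Members that were not called changed sign in places: in the Ehmt2 cross Lamb1 was 0.015 without the set term and 0.13 without replicate 4 of either genotype, and Col4a1 -0.016 with the replicate block; in the Ezh2 cross Lamc1 was 0.024 and Nid1 -0.078 without the 2 epiblasts, and Hspg2 -0.0095 with 1 transcript per gene. Over the fits without 1 epiblast, the log2 fold change went from -0.21 to 0.10 (Lama5), -0.10 to 0.15 (Lamb1) and -0.13 to 0.48 (Col4a1) in the Ehmt2 cross, and from -0.067 to 0.22 (Lama5), -0.012 to 0.29 (Lamb1), -0.36 to 0.043 (Lamc1), -0.22 to 0.90 (Col4a1), -0.72 to 1.05 (Nid1) and -0.082 to 0.065 (Hspg2) in the Ezh2 cross. Nid1 and Lama3 were higher in the Ehmt2 knockouts under each of 16 alternatives, at 2.36 to 3.24 and 2.12 to 3.03. Only 5 of 8 Ehmt2 and 2 of 6 Ezh2 epiblasts correlated best with the epiblast of their own number, so the block may join unrelated embryos. The depth limits Col4a5, at 0 to 89 counts, most.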
